A study of Mus musculus with 15 samples.

Results

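AMPA and kainate receptors are tetrameric glutamate-gated cation channels. They are built from the 4 AMPA subunits encoded by Gria1 to Gria4 and the 5 kainate subunits encoded by Grik1 to Grik5. These 9 genes were found by symbol among the 35976 rows of the deposited count table, and RNA from all 9 is described here across 15 libraries of sorted nuclei from the mouse ventral tegmental area, the midbrain region whose dopamine neurons project to the nucleus accumbens. All mice were males aged 8 to 12 weeks and heterozygous for the Cre allele of the strain named B6.SJL-Slc6a3tm1.1(cre)Bkmm/J (also called DAT-Cre), in which Cre is driven from the dopamine transporter locus. All had received AAV5-DIO-KASH-HA in the ventral tegmental area. Cre turns on a nuclear-envelope HA tag in infected cells, so the HA-positive nuclei were collected as dopaminergic and every other DAPI-positive nucleus as non-dopaminergic.

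The 4 groups were dopaminergic nuclei of food-trained mice (labelled FT, n = 4), of mice after the last cocaine maintenance session (MN, n = 3) and of mice then kept in the home cage without cocaine for 21 days (CRV, here called abstinence, n = 4), and non-dopaminergic nuclei of food-trained mice (n = 4). Food training was lever pressing for food over 7 days, beginning 14 days after the virus. After catheter surgery, mice of the other 2 dopaminergic groups took cocaine by vein for 1 hour a day. An infusion held 0.3 mg/kg on the 5 acquisition days and 1.0 mg/kg on the 10 maintenance days. Each library came from tissue punches of 2 mice pooled, and p-values measure the spread between these pools. Food-trained mice were sampled after their last food session and had taken no cocaine. No group that took saline was analysed here, so cocaine, surgery, age and time since food training cannot be told apart in the stage comparisons.

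AMPA receptors carry most fast excitatory transmission. Receptors that hold the GluA2 subunit, encoded by Gria2, pass little calcium, because its transcript is edited by the adenosine deaminase ADAR2 (Adarb1) at a codon in the channel pore called the Q/R site, where glutamine becomes arginine. In dopamine neurons of the ventral tegmental area, a change from GluA2-containing to GluA2-lacking receptors is a known response to cocaine. Kainate receptors act both postsynaptically and at axon terminals: GluK1 to GluK3 form channels on their own, and GluK4 and GluK5 assemble with them. The counts used here measure RNA in nuclei, not editing, receptor protein or receptors at the synapse.

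The coding sequence around the Q/R site is shown for the 4 AMPA genes and for Grik1 and Grik2, whose transcripts are also known to be edited there, because it shows the site and how alike the subunits are where reads must be told apart. Sequences are from GENCODE M21 transcripts on GRCm38, written 5′ to 3′ on the coding strand, with the unedited glutamine codon in capitals.
Gria1: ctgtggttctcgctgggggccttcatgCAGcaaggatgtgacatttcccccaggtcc
Gria2: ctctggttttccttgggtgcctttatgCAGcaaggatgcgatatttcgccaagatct
Gria3: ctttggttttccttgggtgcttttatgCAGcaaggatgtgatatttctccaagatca
Gria4: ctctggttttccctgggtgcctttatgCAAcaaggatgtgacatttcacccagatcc
Grik1: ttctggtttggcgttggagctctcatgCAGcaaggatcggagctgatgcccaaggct
Grik2: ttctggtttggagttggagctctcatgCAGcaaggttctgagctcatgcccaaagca
The Gria2 codon lies at chr3:80706911-80706913 on the minus strand, in exon 11 of 16, and the Grik1 codon at chr16:87940542-87940544 on the minus strand, in exon 13 of 18. Within these windows of 57 bases, which cross an exon boundary in the 6 genes shown, Gria2 and Gria3 had 52 identical bases, Gria2 and Gria1 had 45, Grik1 and Grik2 had 51, and Gria2 and Grik1 had 37. Over the whole coding sequence the longest run shared exactly was 56 bases between Gria2 and Gria3 and 55 between Gria2 and Gria4, and among the kainate genes 38 bases between Grik3 and Grik5. The 9 genes are protein-coding and lie on different parts of the genome, among them Gria2 at chr3:80681450-80802835, minus strand, Gria3 at chrX:41400854-41678601, plus strand, Gria4 at chr9:4417896-4796234, minus strand and Grik1 at chr16:87895900-88290265, minus strand. How the authors' counting treated reads shared between genes, or strand, is not given in the sources used here.

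The libraries held 25813697 to 59046618 counts. The sort was visible in the markers: the dopamine transporter gene Slc6a3 was at 3009.7 ± 1031 CPM (counts scaled to library size, SD, n = 4) in food-trained dopaminergic and 91.5 ± 18.9 CPM in non-dopaminergic nuclei, and tyrosine hydroxylase (Th) at 887 ± 361 and 36.8 ± 5.27 CPM. The 10 oligodendrocyte markers, which include the myelin gene Mag, summed to 1155 to 2829.7 CPM in the 11 dopaminergic libraries and to 9562 to 23213 CPM in the non-dopaminergic libraries. Dopaminergic nuclei also held RNA of the glutamate transporter gene Slc17a6 (460.4 ± 212 CPM after food training) and of the GABA-synthesis gene Gad2 (62.0 ± 10.5 CPM). Each library's dependence on GC was summarised relative to the other libraries. From each gene's log2 CPM its mean over the 15 libraries was subtracted, and the difference was fitted on transcript GC content. The fit used the 8352 genes with a mean log2 CPM above 4. The slope is therefore relative to the average of these libraries and does not measure a library's GC dependence by itself. This slope was -0.0376 to -0.0224 per percent GC in the 3 maintenance libraries and -0.0248 in non-dopaminergic replicate 2, against -0.0167 to 0.0322 in the other 11. These 4 lowest slopes are called low here, although no wide gap set them apart: food-trained dopaminergic replicate 2, at -0.0167, was nearest.

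Gria2 RNA was the most abundant of the 9 in CPM in every library. Its CPM was 1123, 1512, 1742 and 1319 in the food-trained dopaminergic libraries, in replicate order, 1499, 1488 and 1767 at maintenance, 1435, 1415, 1173 and 1357 in abstinence and 1180.0, 1268, 1102 and 1388 in non-dopaminergic nuclei. All 15 libraries lay within 1102 to 1767 CPM, and the groups overlapped except that each abstinence and each non-dopaminergic library was below each maintenance library. Gria1, whose product GluA1 carries the phosphorylation sites best known from synaptic plasticity, was at 295, 187, 261 and 451 CPM after food training, 379.7, 279 and 366 at maintenance, 261, 493, 358 and 198 in abstinence and 383, 286, 366 and 632 in non-dopaminergic nuclei. It varied by more than 2-fold among libraries of the same group in 3 of the 4 groups, and non-dopaminergic replicate 4 and abstinence replicate 2 were its highest libraries.

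Gria3 RNA was at 263, 220.0, 247 and 251 CPM in food-trained dopaminergic libraries, 373, 338 and 295 at maintenance, 279, 311, 355 and 327 in abstinence and 202, 316, 194 and 215 in non-dopaminergic nuclei. The food-trained dopaminergic libraries were close together and below all 7 libraries of the cocaine groups, while 1 non-dopaminergic library, replicate 2, stood above its group. Gria4, which encodes a subunit of fast channel kinetics, was at 348, 392, 276 and 253 CPM after food training, 559, 341 and 418 at maintenance, 284, 358, 363 and 352 in abstinence and 347, 398, 296 and 267 in non-dopaminergic nuclei. Maintenance replicate 1 was the highest Gria4 library, and the groups overlapped.

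**Figure D1:**
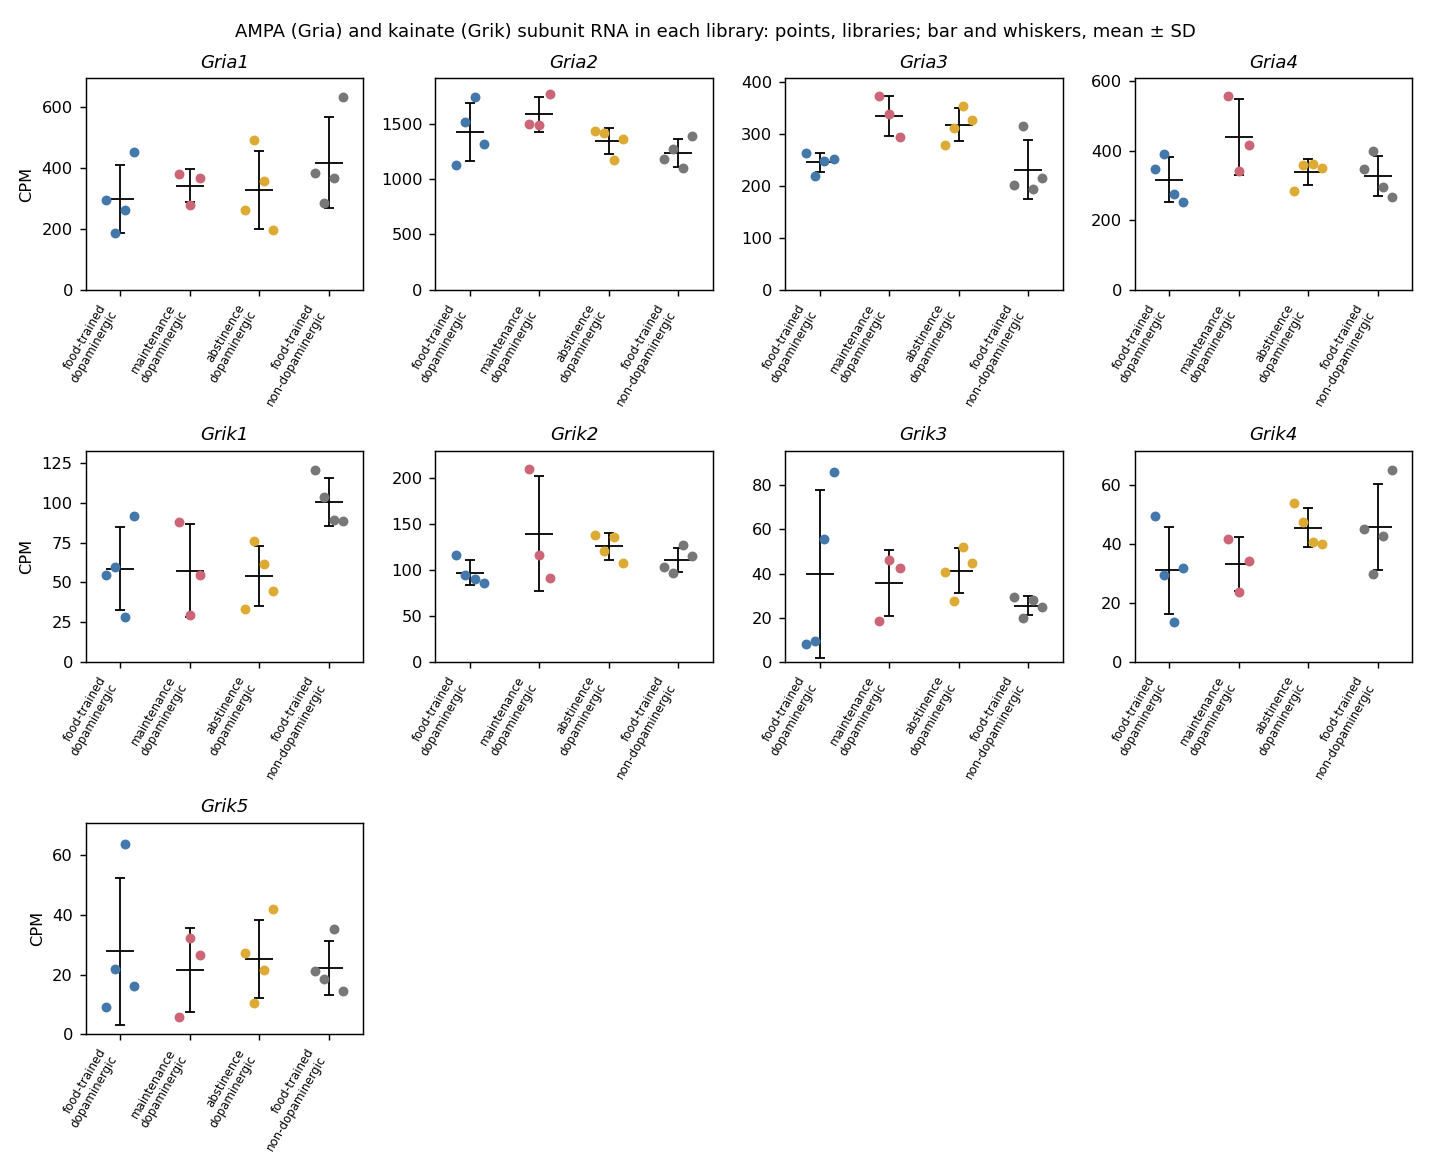
CPM (y axis, linear, from 0) of each subunit gene in the 15 libraries, by group on the x axis: points are libraries, and the bar and whiskers are the group mean ± SD. Gria2 lies between 1102 and 1767 CPM; the 4 food-trained dopaminergic points of Gria3 lie below the 7 points of the cocaine groups, and those of Grik1 overlap the non-dopaminergic group in 1 library.

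The kainate subunit genes were lower. Grik1, encoding GluK1, was at 54.8, 59.6, 28.3 and 91.7 CPM in food-trained dopaminergic libraries, 87.8, 29.5 and 54.6 at maintenance, 33.5, 76.0, 61.5 and 44.9 in abstinence and 121, 104, 89.1 and 88.5 in non-dopaminergic nuclei. The non-dopaminergic libraries were all above 10 of the 11 dopaminergic libraries; the exception was food-trained replicate 4. Grik2, encoding GluK2, was at 117, 94.96, 90.2 and 85.8 CPM after food training, 210.0, 117 and 91.4 at maintenance, 139, 121, 136 and 107 in abstinence and 103, 97.3, 127 and 115 in non-dopaminergic nuclei. Maintenance replicate 1 was its highest library, and the other 14 lay between 85.8 and 139 CPM.

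Grik3, encoding GluK3, spread widely, with 8.05, 9.46, 55.4 and 85.9 CPM in the 4 food-trained dopaminergic libraries against a range of 19.96 to 29.5 CPM in the non-dopaminergic group. Replicates 1 and 2 of the food-trained dopaminergic group were its lowest libraries of all 15 and replicates 3 and 4 its highest. GluK4 and GluK5 need GluK1 to GluK3 to form channels. Grik4 ranged over 13.4 to 49.6 CPM after food training, 23.8 to 41.8 at maintenance, 39.9 to 53.9 in abstinence and 29.8 to 65.0 in non-dopaminergic nuclei. Grik5 ranged over 9.20 to 63.8, 5.72 to 32.2, 10.5 to 41.9 and 14.6 to 35.3 CPM in the same groups, with 63.8 CPM in food-trained dopaminergic replicate 3 as its highest library. Neither gene separated any pair of groups.

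Levels of different genes were set beside each other as CPM per kilobase of merged exon. In food-trained dopaminergic nuclei the order was Gria2 (91.6 ± 17.0 CPM per kb, SD, n = 4), Gria4 (50.3 ± 10.2), Gria1 (49.4 ± 18.4), Gria3 (24.9 ± 1.85), Grik1 (8.72 ± 3.87), Grik2 (7.32 ± 1.04), Grik5 (5.38 ± 4.75), Grik4 (5.21 ± 2.48) and Grik3 (4.42 ± 4.22). Gria4 and Gria1 overlapped there, as did every neighbouring pair among the kainate genes, whereas the ranges of Gria2 and Gria4, of Gria1 and Gria3 and of Gria3 and Grik1 did not. Gria3 exceeded each kainate gene in every library of every group. In non-dopaminergic nuclei Gria1 came second by merged-exon length (69.0 ± 24.7 CPM per kb), overlapping Gria2 (79.4 ± 7.89) and above it in replicate 4, and Grik1 (15.0 ± 2.26) was above Grik2 (8.36 ± 1.00) without overlap. In abstinence, too, the ranges of Gria2 and Gria1 overlapped. These orders rest on the length used: with coding lengths Grik2 came before Grik1, at 37.4% against 32.7% of kainate RNA in non-dopaminergic and 40.2% against 22.4% in food-trained dopaminergic nuclei, while Gria1 no longer overlapped Gria2 in non-dopaminergic nuclei. With coding lengths the shares of Gria1 (7.95% to 19.5%) and Gria3 (9.52% to 13.0%) overlapped in food-trained dopaminergic nuclei. Summed over the family, AMPA RNA per kb was 7.07 ± 0.903 times kainate RNA (SD, n = 4) in food-trained dopaminergic nuclei, 8.06 ± 0.759 at maintenance, 6.56 ± 0.831 in abstinence and 5.91 ± 0.925 in the non-dopaminergic libraries. The ranges of the 4 groups overlapped except those of maintenance (7.31 to 8.82) and non-dopaminergic nuclei (4.95 to 6.73), and these overlapped too with counts not divided by length (7.72 to 11.4 and 6.08 to 8.43) and with coding lengths. With longest-transcript lengths maintenance (6.81 to 8.86) and also abstinence (6.34 to 7.42) lay above non-dopaminergic nuclei (4.63 to 6.28) without overlap.

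The share of each subunit within its family does not depend on how libraries are scaled to one another. Gria2 made up 42.2% ± 6.77 of AMPA subunit RNA per kb (SD, n = 4) in food-trained dopaminergic nuclei, 39.1% ± 4.64 at maintenance, 38.5% ± 5.35 in abstinence and 35.5% ± 0.757 in non-dopaminergic nuclei. The dopaminergic libraries spread widely, from 33.0% to 50.0%, around a narrow non-dopaminergic range of 34.6% to 36.4%. These percentages rest on the length used, because the annotated Gria2 exons hold 15548 bases and those of Gria1 6043, while their coding sequences hold 2649 and 2721: with coding lengths in their place the Gria2 share was 62.4%, 59.2%, 58.3% and 56.4% in the same groups. Gria1 made up 22.8% ± 7.93, 21.5% ± 1.27, 23.4% ± 6.72 and 30.4% ± 7.94, and Gria3 11.5% ± 1.14, 13.1% ± 1.92, 14.3% ± 1.82 and 10.6% ± 2.58. The Gria3 shares of the food-trained group overlapped those of both cocaine groups, unlike its CPM.

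Within the kainate family the leading subunit differed between libraries and with the length used. Grik1 made up 27.99% ± 10.2 of kainate RNA per kb in food-trained dopaminergic nuclei, 25.1% ± 9.10 at maintenance, 23.2% ± 8.30 in abstinence and 39.4% ± 6.59 in non-dopaminergic nuclei. It led in all 4 non-dopaminergic libraries by merged-exon length, but its mean there was below that of Grik2 with coding lengths and with counts not divided by length (33.2% against 36.3%). Grik5 ranged from 6.36% to 38.8% among the 4 food-trained dopaminergic libraries, and Grik3 from 3.21% to 25.1%.

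**Figure D2:**
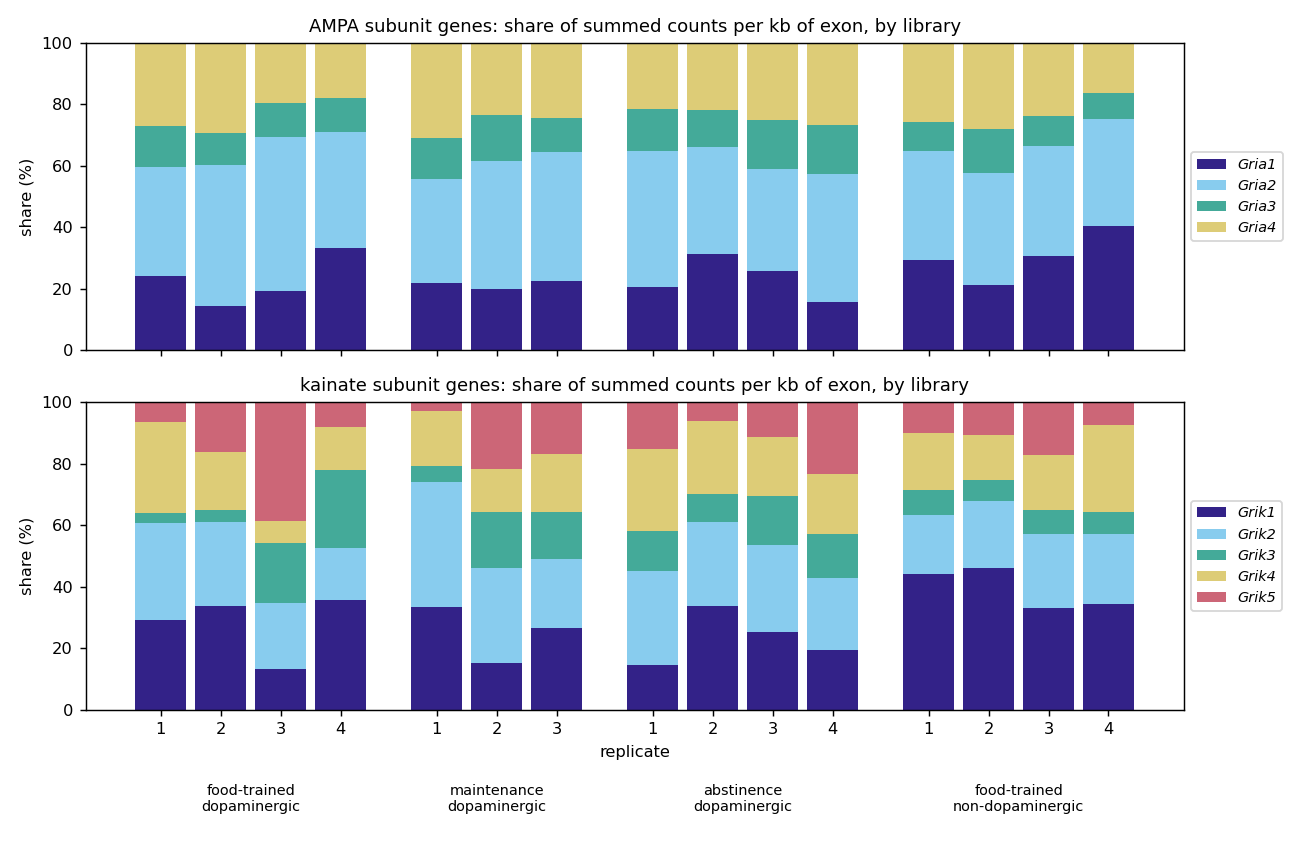
Share (percent, y axis) of each subunit in the summed counts per kb of exon of its family, one stacked bar per library, with replicates on the x axis under their group. The Gria2 segment is between 34.6% and 36.4% in the 4 non-dopaminergic libraries and between 33.0% and 50.0% in the 11 dopaminergic ones. The Grik5 segment is between 2.83% and 38.8% over the 15 libraries.

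The first comparison asked whether the 2 sorted populations of food-trained mice differed in subunit RNA. None of the 9 genes passed the threshold (edgeR quasi-likelihood test, Benjamini-Hochberg adjusted p under 0.05 over 19786 genes), against 12.8% of all genes tested, or 775 genes in place of 2534 with the replicate number as a block. All 9 passed the filter on low counts, and for none were the groups free of overlap, as they were for 25.9% of all genes. Members leaned both ways, 4 higher and 5 lower in dopaminergic nuclei, with a median log2 fold change of -0.068 against -0.21 over all genes. Differences were small for 3 AMPA genes: the log2 fold change of Gria2 was 0.18 (95% interval -0.29 to 0.65), of Gria3 0.062 (-0.38 to 0.50) and of Gria4 -0.068 (-0.53 to 0.40). The intervals of these 3 genes therefore exclude a 2-fold difference in either direction, while those of Grik3 (-0.98 to 2.22) and Grik5 (-1.05 to 1.62) do not. Gria1 was lower on average in dopaminergic nuclei, with a mean of 299 ± 111 CPM beside 417 ± 149 CPM, and its log2 fold change of -0.50 (95% interval -1.25 to 0.24) had an edgeR adjusted p of 0.415. Within same-numbered libraries, Gria1 was lower in the dopaminergic one in 4 of 4 pairs, at 0.655 to 0.771 of its partner's level, and with the replicate block the log2 fold change was -0.51 and the edgeR adjusted p 0.108. Gria4, Grik1, Grik2 and Grik4 were lower in 3 of 4 pairs, Gria2 and Grik3 in 2 and Gria3 and Grik5 in 1. Of all 19786 genes, 3773 were lower without overlap and therefore in every pair, and the full share lower in 4 of 4 pairs was not computed.

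Grik1 had the lowest p-value of the 9 in this comparison. Its mean was 58.6 ± 26.0 CPM in the tagged and 101 ± 15.2 CPM in the untagged population. The log2 fold change was -0.80 (SE 0.33, 95% interval -1.53 to -0.062), with an unadjusted edgeR p of 0.0366 and an adjusted p of 0.168. The one dopaminergic library that overlapped the other population, replicate 4, decided the call: without it the log2 fold change was -1.11 and the edgeR adjusted p 0.0362. More genes passed in general without this library, 3728 of all 20669 tested against 2534 of 19786 with all libraries. With all libraries, unadjusted p-values under 0.05 were held by 24.3% of all genes. In bulk libraries such as these, fewer cells of a type and less RNA per cell cannot be told apart. The non-dopaminergic libraries were also higher in glial markers, with 236 to 328 CPM summed over the 6 oligodendrocyte precursor markers against 41.2 to 96.3 CPM and 1676 to 3236 against 809.8 to 991 CPM over the 8 astrocyte markers. All 8 astrocyte and 2 of the 6 precursor markers had counts in every library, with Olig2 at 0 in 6 and Gpr17 in 5 of the 11 dopaminergic libraries. Microglia markers summed to 1673 to 3683 against 525 to 972 CPM, and 22733 to 23886 genes were detected against 14841 to 18372. Gad2 was lower in each dopaminergic than in each non-dopaminergic library (log2 fold change -0.46, edgeR adjusted p 0.157), while the GABA marker sums and Slc17a6 overlapped. The part of these cells, and of the genes detected, in the subunit values was not tested.

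**Figure D3:**
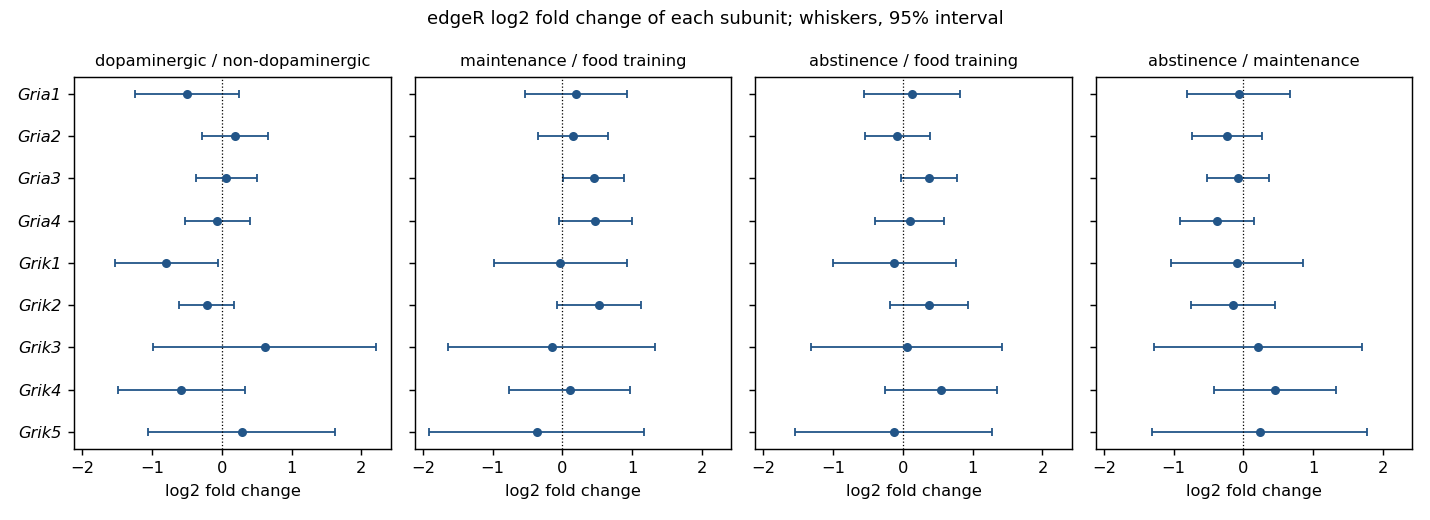
Log2 fold change (x axis) of each subunit gene in the 4 pairwise comparisons, from edgeR: points are estimates, whiskers are 95% intervals, and the dotted line marks no difference. None of the 36 values passed the adjusted threshold, and the widest intervals are those of Grik3 and Grik5.

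The 3 stage comparisons asked whether subunit RNA of dopaminergic nuclei differed after cocaine taking and after abstinence. They share libraries, so their values for a gene are not independent. At maintenance against food training, 0 of the 9 genes passed edgeR's adjusted threshold and 1 had an unadjusted p under 0.05, against 0.131% and 11.6% of the 19060 genes tested. The 4 AMPA genes all had positive log2 fold changes, between 0.16 for Gria2 and 0.47 for Gria4, with a median of 0.32 against -0.00723 over all genes, and among them Gria3 alone turned negative, in 1 alternative, a fit with a term for the low-slope libraries. Gria3 averaged 335 ± 39.0 CPM (SD, n = 3) against 245 ± 18.3 CPM (n = 4) and was the member whose groups did not overlap, as was so for 8.49% of all genes, 4.28% with maintenance higher. Its log2 fold change was 0.45 (SE 0.20, 95% interval 0.015 to 0.89), with an edgeR p of 0.0436 unadjusted and 0.419 adjusted. Gria4 (0.47, interval -0.055 to 1.00) and Grik2 (0.52, -0.079 to 1.13) had the next lowest p-values, and maintenance replicate 1 was the highest library of both. Without that replicate the log2 fold change of Gria4 was 0.26 and of Grik2 0.10. Markers of other cell types also lay apart in these libraries, with neither gene named here past the threshold. Gad2 was higher in each maintenance than in each food-trained library (log2 fold change 0.99, edgeR adjusted p 0.378), with 194 CPM in replicate 1 as its highest, and the 3 GABA markers, none at 0, summed to 164 to 347 CPM against 163 to 219 CPM. The 10 oligodendrocyte markers, 8 of them with counts in every library, summed to 1189 to 1761 CPM against 1788 to 2829.7 CPM, and Mag was lower in each maintenance library (log2 fold change -0.84, edgeR adjusted p 0.492). Their part in the subunit values was not tested.

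Among the dopaminergic libraries, the 3 of maintenance had the most negative GC slopes, and transcripts of Gria3 hold 39.8% GC, those of Gria2 36.8% and those of Grik5 61.7%, around a median of 49.5% for the genes tested. Non-dopaminergic replicate 2, whose slope lay within the maintenance range, held 316 CPM of Gria3 against 194 to 215 CPM in the other 3 non-dopaminergic libraries. With a GC correction the Gria3 log2 fold change at maintenance was 0.29 (edgeR adjusted p 0.763). With a term for the 4 low-slope libraries in a fit of all 15, which leaves non-dopaminergic replicate 2 as the library that separates the term from maintenance, the value turned to -0.19 (edgeR adjusted p 1.000). The 3 maintenance libraries all have low slopes, so GC slope and cocaine taking cannot be told apart in them.

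**Figure D4:**
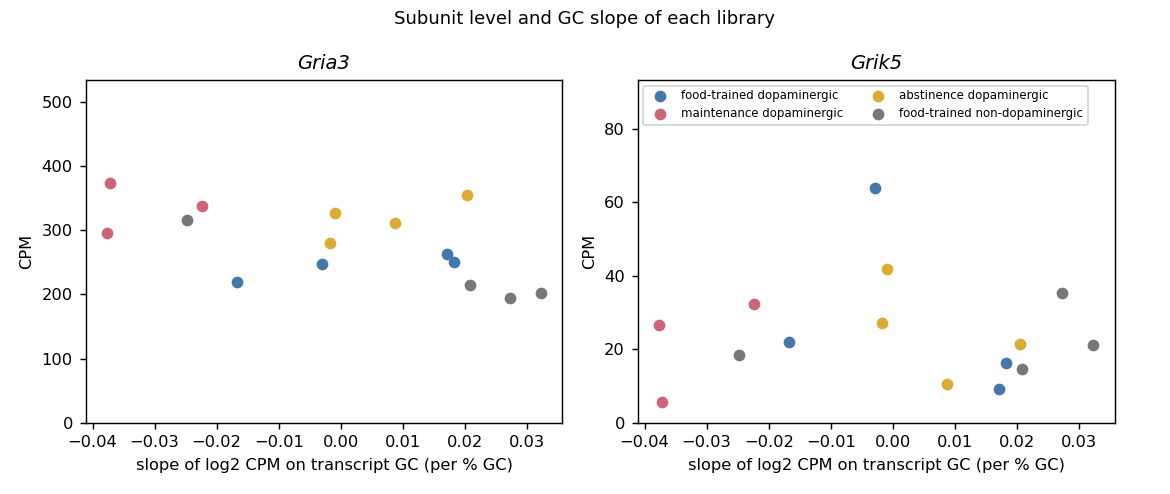
CPM of Gria3 and of Grik5 (y axes, linear, from 0) against each library's GC slope, with 1 point per library coloured by group. The x axis is the change per percent GC in log2 CPM relative to the mean of the 15 libraries. The 3 maintenance libraries and non-dopaminergic replicate 2 lie at the left, between -0.0376 and -0.0224, where Gria3 is between 295 and 373 CPM.

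In abstinence against food training, 0 of the 9 genes passed edgeR's adjusted threshold and 0 had an unadjusted p under 0.05; over all genes the shares were 0% adjusted and 4.3% unadjusted, and DESeq2, which called 125 of all genes, called 0 of the 9. Gria3 was again the member whose groups did not overlap, at 318 ± 31.4 CPM (SD, n = 4) against 245 ± 18.3 CPM, as was so for 3.32% of all genes, 2.37% with abstinence higher. Its log2 fold change was 0.37 (SE 0.19, interval -0.032 to 0.78, edgeR p 0.0684 unadjusted and 1.000 adjusted). The abstinence libraries had GC slopes of -0.00183 to 0.0204, beside -0.0167 to 0.0182 in the food-trained libraries, and the GC correction gave 0.34. Over all the alternatives, leaving out each library included, the Gria3 value in abstinence lay between 0.32 and 0.43. The other AMPA genes were close to 0, with Gria2 at -0.082 (-0.55 to 0.38), Gria4 at 0.097 (-0.40 to 0.59) and Gria1 at 0.13 (-0.55 to 0.81). Grik4 had the largest value, 0.55 (-0.25 to 1.35), at 45.5 ± 6.53 against 31.1 ± 14.8 CPM. Cell type markers also differed in level between these groups, with ranges that overlapped and none of the 3 genes named next past the threshold. Th was at 492 to 619 CPM in abstinence against 567 to 1380.2 CPM, overlapping (log2 fold change -0.70, edgeR p 0.0495 unadjusted and 1.000 adjusted), while Slc6a3 stood at -0.20 and Gad2 at 0.56, both with overlap. The oligodendrocyte markers summed to 1155 to 2043 CPM against 1788 to 2829.7 CPM and the GABA markers to 199 to 406 CPM against 163 to 219 CPM, and 17444 to 19750 genes were detected against 14841 to 18372. Their part in the Gria3 and Grik4 values was not tested.

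In abstinence against maintenance, 0 of the 9 genes passed edgeR's adjusted threshold and 0 had an unadjusted p under 0.05, against 0.178% and 9.92% of all genes. Gria2 was lower in each abstinence library than in each maintenance library, as was so of 4.58% of all genes (12.1% in either direction), and the difference was -0.24 on the log2 scale (SE 0.23, interval -0.74 to 0.26, edgeR adjusted p 0.935). Gria4 was -0.38 (-0.91 to 0.15) and Gria3 -0.077 (-0.51 to 0.36), which the term for the low-slope libraries turned to 0.019 and 0.56. A test for any difference among the 3 stages also called 0 of 9 genes, against 0.0839% of all genes. At an unadjusted p under 0.05 it called 0 of 9, against 7.85% of all genes. The lowest p among them was that of Gria3 (edgeR p 0.0859 unadjusted, 0.680 adjusted).

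Receptors of both families work with partner proteins, and 44 such genes were listed, all of which were tested. The list holds auxiliary subunits that ride on the channel (TARPs such as Cacng2, cornichons such as Cnih2), biogenesis and trafficking factors, Dlg scaffolds, the kainate partners Neto1 and Neto2, kinases, editing enzymes, delta receptors and secreted organizers. Between the populations 3 of 44 passed edgeR's adjusted threshold, 1 higher and 2 lower in dopaminergic nuclei, and 13 had an unadjusted p under 0.05, against 3.63% of all genes higher, 9.17% lower and 24.3% unadjusted. The median log2 fold change of the list was -0.30, against -0.21 over all genes. The groups did not overlap for 3 of the 44 genes with dopaminergic nuclei higher and for 7 with them lower. Over all 19786 genes this was so for 1360 and 3773, or 25.9% in either direction. By role, the called genes were 0 of 13 AMPA auxiliary subunits, 0 of 11 trafficking factors, 1 of 4 scaffolds, 1 of 2 kainate partners, 0 of 4 kinases, 1 of 3 editing enzymes, 0 of 2 delta receptors and 0 of 5 secreted organizers. Neto2, which slows the kinetics of kainate receptors, was higher, at 96.0, 118, 129.9 and 101 CPM in the 4 dopaminergic and 36.4, 47.9, 40.8 and 53.3 CPM in the 4 other libraries. The groups were far from overlapping, with 2.46 times the level (log2 fold change 1.30, SE 0.20, edgeR adjusted p 0.00670). Neto2 ranged over 111 to 189.8 CPM at maintenance and 88.3 to 143 CPM in abstinence, also above all non-dopaminergic libraries. Its paralogue Neto1 lay the other way without passing, with means of 34.8 ± 17.6 and 73.9 ± 16.8 CPM (log2 fold change -1.11, edgeR adjusted p 0.115), though DESeq2 called it (log2 fold change -1.09, DESeq2 adjusted p 0.0476); it was named after its values were seen.

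Dlg2, which encodes the postsynaptic scaffold PSD-93, was lower in dopaminergic nuclei, at 45.8, 69.6, 86.5 and 53.7 CPM against 128, 119, 131 and 136 CPM, again without overlap (log2 fold change -1.03, SE 0.22, edgeR adjusted p 0.0132). Adarb1, which encodes the enzyme that edits the Gria2 codon printed above, was at 26.8, 44.2, 18.4 and 40.2 CPM in dopaminergic libraries and at 104, 54.8, 107 and 93.5 CPM in the others. Every dopaminergic library was below every non-dopaminergic one, and the log2 fold change was -1.49 (SE 0.34, edgeR adjusted p 0.0175). This call depended on the libraries and the design, while the fold changed little: the log2 fold change was -1.53 with the replicate block (edgeR adjusted p 0.0966), -1.39 without non-dopaminergic replicate 1 (0.0595) and -1.37 without replicate 3 (0.0582). Neto2 and Dlg2 passed with the block and without each library in turn. With the block 3 of 44 genes passed, against 3.92% of all genes; the third was the kinase gene Camk2a (log2 fold change -1.89, edgeR adjusted p 0.0209, and 0.0556 without the block), outside the rule for named genes and named after its values were seen. The glial marker sums that separated the 2 populations belong to the same libraries, and their part in these 3 differences was not tested.

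**Figure D5:**
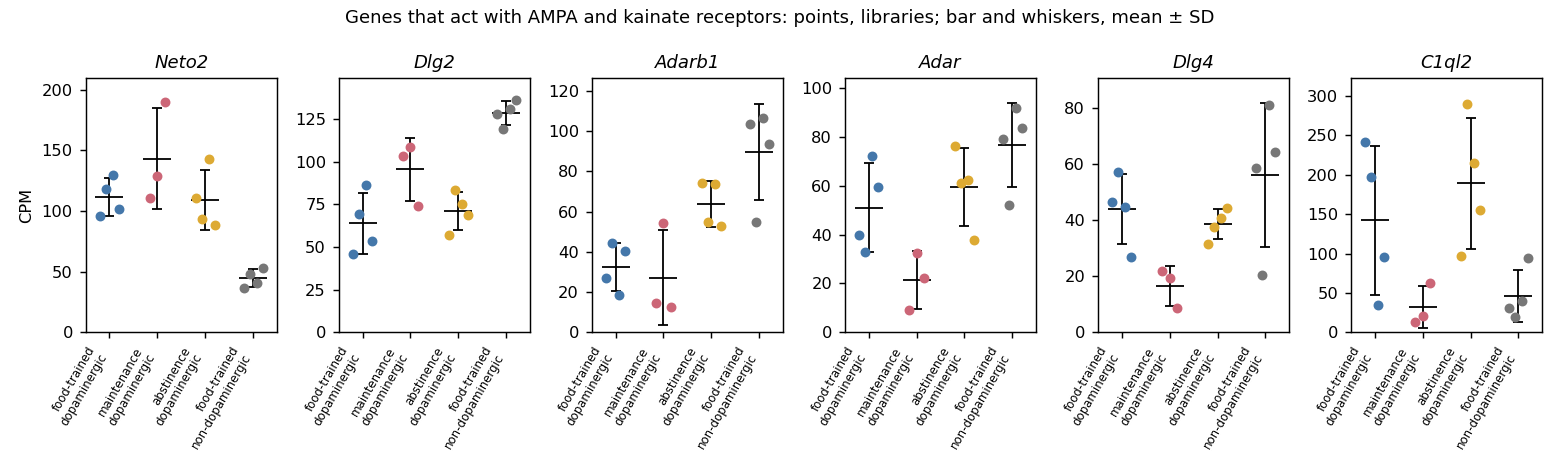
CPM (y axes, linear, from 0) of 6 genes whose products act with AMPA and kainate receptors, by group: points are libraries, the bar and whiskers the group mean ± SD. Neto2 lies higher in all dopaminergic groups than in non-dopaminergic nuclei, and Adarb1, Adar and Dlg4 are lower in non-dopaminergic replicate 2 than in the other 3 libraries of that group.

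In the stage comparisons 0 of the 44 genes passed edgeR's adjusted threshold, with 4 at an unadjusted p under 0.05 at maintenance against food training, 3 in abstinence against food training and 5 in abstinence against maintenance, against 11.6%, 4.3% and 9.92% of all genes. At maintenance the lowest p-values were those of Dlg4, the PSD-95 scaffold (16.6 ± 7.09 against 43.8 ± 12.5 CPM, log2 fold change -1.40, edgeR adjusted p 0.230), the secreted kainate receptor organizer C1ql2 (-2.13, 0.292) and the editing enzyme Adar (-1.26, 0.360). DESeq2 called Dlg4 and C1ql2 at maintenance (DESeq2 adjusted p 0.0174 and 0.0120), 2 of 44 genes where it called 4.69% of all genes. C1ql2 was at 13.6, 20.2 and 63.0 CPM at maintenance, 242, 197, 34.4 and 96.0 CPM after food training and 96.5, 289.8, 215 and 155 CPM in abstinence. Maintenance replicate 3 lay within the food-trained range and below all abstinence libraries. Without it the C1ql2 log2 fold change was -3.07 against food training (edgeR adjusted p 0.260), and the GC correction gave -1.29 (edgeR adjusted p 0.499). These genes also had the lowest p-values in abstinence against maintenance, which shares the maintenance libraries, with the opposite sign: C1ql2 at 2.54, Adar at 1.47 and Dlg4 at 1.22, with edgeR adjusted p of 0.210, 0.295 and 0.357. There the C1ql2 value was 1.69 with the GC correction, 3.48 without maintenance replicate 3 and 1.01 with the term for the low-slope libraries. That term turned the Dlg4 value there to -0.52. DESeq2 called C1ql2 and Adar in abstinence against maintenance (DESeq2 adjusted p 0.00166 and 0.0454), where it called 3.84% of all genes. Non-dopaminergic replicate 2 was the lowest of its group for Dlg4, C1ql2 and Adar, with 20.3 CPM of Dlg4 against 58.5 to 80.9 in the other 3 libraries and 52.1 CPM of Adar against 79.2 to 91.7. That library also had the highest oligodendrocyte, astrocyte and microglia marker sums of its group, and their part in these values was not tested. With the term for the 4 libraries of low slope, the value of Dlg4 at maintenance against food training turned to 0.34, that of C1ql2 was -0.60 and that of Adar -0.55.

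In abstinence against food training the lowest p-values were those of the scaffold Dlg1 (42.4 ± 9.32 against 73.9 ± 23.7 CPM, log2 fold change -0.80), the cornichon Cnih2 (15.4 ± 6.26 against 32.3 ± 13.9 CPM, -1.06) and Adarb1, each with an edgeR adjusted p of 1.000. Adarb1 was at 74.0, 55.1, 73.7 and 52.8 CPM in abstinence, each library above the 4 of food training (log2 fold change 0.98, SE 0.45, interval 0.000365 to 1.96). It was the 1 gene of the 44 without overlap there, as was so for 3.32% of all genes. At maintenance it was at 14.4, 54.5 and 12.6 CPM, so that replicate 2 there reached the abstinence range and the other libraries lay below the food-trained range.

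The genes whose log2 CPM over the 15 libraries was most like that of Grik1, among 14740 genes, were Atp10a (Pearson r = 0.894), Abca8a (0.884), Cyp2d22 (0.883), Kcnk13 (0.883) and Anapc5 (0.880). Those most like Gria3 were Npm1 (0.867), Ndufa8 (0.847), Pdcl3 (0.846), Pja2 (0.842) and Crbn (0.825). These values describe libraries that share population, stage and GC slope. Among the subunits themselves the highest correlations were between Gria1 and Grik1 (r = 0.563) and between Gria3 and Gria4 (0.555), and the lowest between Grik1 and Grik5 (-0.552) and between Grik4 and Grik5 (-0.552).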

How the data were processed

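RNA from sorted nuclei was sequenced in 15 libraries prepared with a low-input kit, per the labels' protocols. The authors deposited whole-number counts per gene. The submitters' processing notes name Trim Galore 0.6.7, cutadapt 1.18, STAR 2.7.10a, StringTie 2.1.5, DESeq2 1.38.3 and the builds mm10 and GRCm38, with no role for each; the strand setting is not given in the sources used here. A second deposited table, named as normalized, held the same counts in its 10 columns and was not used.

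Counts were tested with edgeR 4.0.16 in R 4.3.3 (quasi-likelihood F-test, two-sided, TMM factors, filterByExpr, Benjamini-Hochberg adjustment over all genes, threshold 0.05): the populations in a fit of 8 food-trained libraries, the stages in a fit of the 11 dopaminergic libraries. CPM used TMM factors of all 15 libraries, taken over genes kept by filterByExpr; correlations used log2 CPM with a prior count of 2, over genes with a mean of at least 20 counts. Standard errors are the log2 fold change over the square root of F, with t-based 95% intervals. Exon and coding lengths, GC content and sequences came from GENCODE M21 (GRCm38); GC was known for 86.9% and 87.2% of tested genes. The scripts were tested on simulated data: a first draw, whose changed genes included ones of moderate counts, recovered fewer of them than was required, and the requirement was then applied to a draw of highly counted genes alone. The test therefore does not cover genes at the counts of the lower kainate members.

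Named were all 9 members and, of the 44 partner genes, those past the threshold and the 3 with the lowest p in each comparison. The members, lists and rules were chosen with earlier results of these data known. Same-numbered libraries of the 2 food-trained populations deviated together (r = 0.116, 0.127, 0.262 and 0.243 over 8531 genes), so these numbers were taken to pair them; stage numbers were not. Alternatives were other scaling factors and filters, DESeq2 1.42.0, limma 3.58.1 (voom with sample quality weights, so test and weights changed together), the replicate block, a GC correction (a curve of span 0.3), a term for the 4 libraries of low GC slope, other sets of libraries in the fit, and leaving out each library.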

Additional observations from a re-analysis of the deposited data

Results flagged for a closer look

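Among 54 groups of 4 libraries checked, 1 value stood far from the rest of its group: Gria4 in abstinence replicate 1, at 284 CPM against 352 to 363 CPM in the other 3 abstinence libraries. Chance flags about 1 group in 20. The value singled out rests on the scaling: with TMM factors taken over all rows of the table, an alternative chosen after seeing the data, Gria4 in this library no longer stood apart by the same rule, and Gria3 in non-dopaminergic replicate 2 did, at 318 CPM against 199.5 to 217 CPM in the other 3. Without abstinence replicate 1 the log2 fold change of Gria4 in abstinence against food training was 0.17 (edgeR adjusted p 1.00), and no call changed.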

How the results depend on the processing

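With the numbered libraries paired by a replicate block, 775 genes in place of 2534 passed between the populations and 0 of the 9 members did; among the partner genes the count was 3 in both fits, with Adarb1 lost and Camk2a gained. Stage numbers did not pair, with correlations from -0.351 to 0.110, and the block then left 0 members called as well. No member passed under any of the alternatives but 1, the fit without food-trained dopaminergic replicate 4, in which Grik1 passed, so that the count of members called between the populations lay between 0 and 1 when libraries were left out. Without that replicate 3728 of all 20669 genes passed. The count of partner genes called between the populations, 3, was 10 with DESeq2, 6 with limma-voom with quality weights and 2 to 6 when libraries were left out, with 6 without food-trained dopaminergic replicate 3. Without that replicate 3740 of all 20828 genes passed, against 2534 of 19786 with all libraries. DESeq2 also called 2 partner genes at maintenance against food training (Dlg4 and C1ql2) and 2 in abstinence against maintenance (C1ql2 and Adar), where it called 4.69% and 3.84% of all genes, and 19.6% between the populations. Over all genes, the count called between the populations was 2534, and 3883 with DESeq2, 4266 with limma-voom with quality weights and 1643 with at least 10 counts in every library, which left 916 higher and 727 lower in place of 719 and 1815. At maintenance against food training the count was 25, and 894 with DESeq2, 109 with at least 10 counts, 9 with limma-voom with quality weights, 12 with the GC correction, 1 with the 2 groups alone, 0 with the block and 0 with the term for the 4 low-slope libraries; it was 5 without maintenance replicate 1, 7 without replicate 3 and 78 without replicate 2. In abstinence against maintenance it was 34, and 732 with DESeq2, 69 with at least 10 counts, 22 with upper quartile factors, 22 with the 2 groups alone, 14 with the GC correction, 2 with the block, 1 with the low-slope term, and 6 to 73 when libraries were left out. Gria2's share of AMPA RNA was 61.9% in food-trained dopaminergic, 58.7% in maintenance, 57.8% in abstinence and 55.9% in non-dopaminergic libraries from counts not divided by length, 62.4%, 59.2%, 58.3% and 56.4% with coding length, and 39.9% in the last with the longest transcript; Grik1's share of kainate RNA in non-dopaminergic nuclei was 32.7% with coding and 49.7% with longest-transcript length. Signs changed for 28 of 351 member values under other settings and 34 of 369 when libraries were left out, all of them values that passed in neither fit, and the cause was not tested. With the GC correction the log2 fold changes that changed sign were Gria2 -0.072 and Gria3 -0.062 between the populations, Grik3 0.016 and Grik5 0.26 at maintenance against food training, and Gria3 0.053 and Grik5 -0.46 in abstinence against maintenance. With upper quartile factors the log2 fold changes that changed sign were Gria4 0.0089 between the populations, and Grik1 0.011 at maintenance against food training. With limma-voom with quality weights the log2 fold changes that changed sign were Grik3 -0.044 and Grik5 -0.38 between the populations, Grik3 0.38, Grik4 -0.022 and Grik5 0.23 at maintenance against food training, Grik5 0.36 in abstinence against food training, and Grik1 0.11 and Grik2 0.063 in abstinence against maintenance. With the replicate block the log2 fold changes that changed sign were Grik3 -0.064 between the populations, Grik1 0.12 and Grik3 0.69 at maintenance against food training, Grik5 0.25 in abstinence against food training, and Grik3 -0.029 in abstinence against maintenance. With the term for the 4 low-slope libraries the log2 fold changes that changed sign were Gria3 -0.19, Grik3 0.30 and Dlg4 0.34 at maintenance against food training, and Gria3 0.56, Gria4 0.019, Grik3 -0.25, Grik4 -0.32, Grik5 -0.13 and Dlg4 -0.52 in abstinence against maintenance. When libraries were left out, the values that changed sign between the populations ranged, for Gria4 from -0.19 to 0.032, Grik3 from -0.10 to 0.96 and Grik5 from -0.50 to 0.63. When libraries were left out, the values that changed sign at maintenance against food training ranged, for Grik1 from -0.48 to 0.27, Grik3 from -0.50 to 0.56, Grik4 from -0.15 to 0.42 and Grik5 from -0.79 to 0.45. When libraries were left out, the values that changed sign in abstinence against food training ranged, for Gria1 from -0.14 to 0.40, Gria2 from -0.18 to 0.029, Grik1 from -0.35 to 0.18, Grik3 from -0.29 to 0.76 and Grik5 from -0.50 to 0.68. When libraries were left out, the values that changed sign in abstinence against maintenance ranged, for Gria1 from -0.33 to 0.11, Gria3 from -0.16 to 0.00747, Grik1 from -0.38 to 0.36, Grik2 from -0.38 to 0.27, Grik3 from -0.10 to 0.45 and Grik5 from -0.22 to 0.65. Grik3, Grik4 and Grik5 had the lowest levels per kb of the 9 in dopaminergic nuclei and spread widely between libraries. The intervals of Grik3 and Grik5 allow differences of over 2-fold in each pairwise comparison. Those of Grik4 do so except at maintenance against food training (-0.76 to 0.97). Some intervals of other members do too, such as Gria1 (-1.25 to 0.24) and Grik1 (-1.53 to -0.062) between the populations and Grik2 (-0.079 to 1.13) at maintenance against food training.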
